A study of Mus musculus with 6 samples.

Results

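The spliceosomal small nuclear ribonucleoprotein (snRNP) proteins were taken as the protein-coding genes whose symbol begins with Snrp, Snrnp, Sf3a, Sf3b, Prpf, U2af or Lsm followed by a digit. The rule used names alone, and it found 57 of the 55850 gene rows of the table. They were sorted by particle into 6 U1, 14 U2, 11 U4/U6, 4 U5, 3 U11/U12 and 8 Sm core genes. A further 5 Prp and 6 LSm genes carry the names but were not assigned to these particles. The sorting put the U2AF genes with U2 and Prpf39 with U1. It does not mean that each gene encodes a stable part of its particle. RNA sequencing covered whole testis of untreated mice, with 3 wild-type samples (WT) and 3 samples of a conditional knockout (cKO). By the title, Sertoli cells, the somatic cells that support germ cells, are where the knockout removes SRSF2, a splicing factor with a serine and arginine rich domain. The Cre driver, the strain, the floxed allele and the age of the mice were not given in the sources used here. Nothing in the labels ties each sample to its own animal, and p-values therefore reflect the spread of these samples, which may be technical.

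A snRNP is a short nuclear RNA wrapped in proteins, and the spliceosome that removes introns is built from several of them. The U1 particle pairs with the start of an intron, U2 with the branch point near its end, and the joined U4/U6 and U5 particles then enter together. U4 leaves before the catalytic core of U2 and U6 forms, and U5 holds the exons in place. U1, U2, U4 and U5 RNAs each carry a ring of Sm proteins, U6 carries a ring of LSm proteins, and the U11/U12 particle serves a rare class of introns. Serine and arginine rich factors such as SRSF2 bind exons and help U1 and U2 settle on the neighbouring splice sites.

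Values are FPKM, a read or fragment number scaled to gene length and library size. Differences are cKO minus WT on the log2(FPKM + 1) scale, fitted with limma over 14238 genes whose mean FPKM reached 1 and adjusted by Benjamini-Hochberg over all of them. Recovered reads came to 16070287 to 16479907 per WT library and 16185976 to 17281330 per cKO library, of which the snRNP protein genes took 0.527% to 0.566%. Srsf2 had an FPKM of 127, 96.7 and 102 in WT and 74.0, 87.3 and 87.3 in cKO libraries (log2 difference -0.38, adjusted p = 0.384). The 16 Sertoli cell markers of a fixed list were all detected and their summed FPKM was 1617 to 2170 in WT and 1159 to 1355 in cKO. Of these, 15 were tested and 14 had lower means in cKO. Summed germ cell markers ran from 287 to 477 FPKM in WT and from 345 to 506 in cKO, and 12 of the 13 tested had a positive difference. The part of these cell markers in the differences given for snRNP genes was not tested.

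Of the 57 genes, 56 passed the filter on low values, and none passed the adjusted threshold of 0.05 in either direction. The background was as low, since 1 gene of 14238 was called lower (0.00702%) and 1 was called higher (0.00702%). The lowest adjusted p among the 56 was 0.360, for Snrnp70. At an unadjusted p under 0.05, 8 genes (14.3%) had lower values in cKO, beside 7.68% of all genes tested, and 2 (3.57%) had higher values, beside 4.65%. In 9 genes (16.1%) the 3 cKO values all lay below the 3 WT values, beside 9.92% of all genes, and in 4 genes (7.14%) they all lay above, beside 8.69%. A negative log2 difference was found in 37 of the 56 (66.1%), beside 49.2% of all genes, and the median was -0.12, beside 0.00. At a mean FPKM of at least 5, 53 snRNP genes were tested and 67.9% were negative, beside 52.3% of all genes. There, 9 had all cKO values below WT, beside 12.2% of all genes, and 4 had all above, beside 8.70%. Without WT replicate 1 the share was 30 of 56 and the median -0.01, and without cKO replicate 3 the median was -0.06. In whole tissue, fewer cells of a type and less RNA per cell cannot be told apart.

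**Figure D1:**
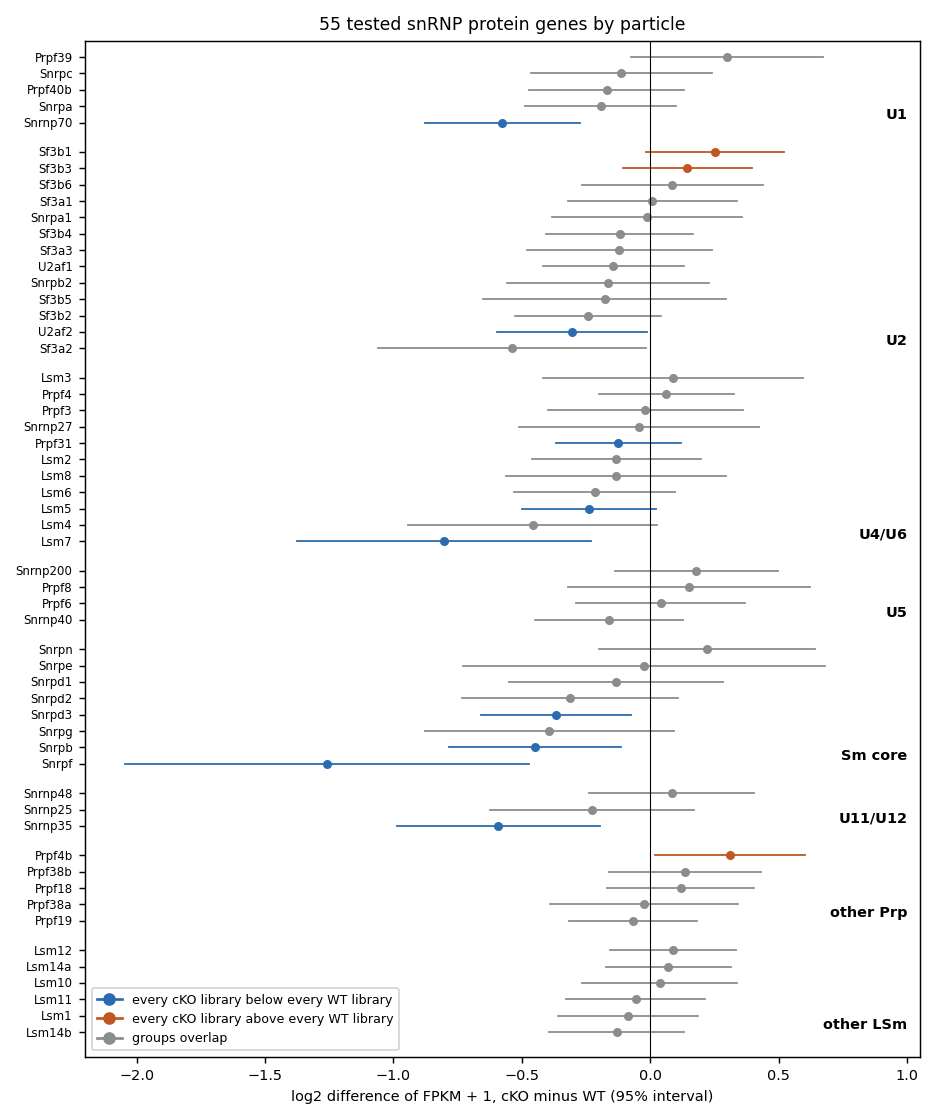
Fitted log2 difference (cKO minus WT, log2(FPKM + 1) scale, horizontal axis) of 55 of the tested genes, grouped by particle, with 95% intervals as bars. Most Sm core, U2 and U4/U6 points lie left of 0, from -1.26 (Snrpf) upward, and 3 of the 4 U5 points lie right of it.

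Sequences upstream of the start are printed as examples for some of the snRNP genes with separated groups. They are the 250 bases before the start in RefSeq on GRCm38.p6, for the lowest-p genes with 1 listed start and no more than 30 of those bases in an annotated exon. Each reads 5′ to 3′ towards its gene. Capitals mark 5 motifs searched on both strands. The GC box was searched as GGGCGG, the core bound by ETS factors as CCGGAAG, and that bound by NRF1 as GCATGCGC. The CCAAT box was searched as its name spells it, and the TATA box was searched with the letters TATAAA. Snrnp70 lay at chr7:45395743-45395992 on the minus strand, Snrnp35 at chr5:124482905-124483154 on the plus strand, and Sf3b1 at chr1:55027479-55027728 on the minus strand.
Snrnp70: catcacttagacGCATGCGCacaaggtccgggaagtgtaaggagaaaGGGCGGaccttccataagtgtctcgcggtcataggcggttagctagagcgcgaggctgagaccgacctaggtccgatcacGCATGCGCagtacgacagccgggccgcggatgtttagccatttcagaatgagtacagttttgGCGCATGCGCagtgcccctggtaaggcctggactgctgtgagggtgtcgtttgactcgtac
Snrnp35: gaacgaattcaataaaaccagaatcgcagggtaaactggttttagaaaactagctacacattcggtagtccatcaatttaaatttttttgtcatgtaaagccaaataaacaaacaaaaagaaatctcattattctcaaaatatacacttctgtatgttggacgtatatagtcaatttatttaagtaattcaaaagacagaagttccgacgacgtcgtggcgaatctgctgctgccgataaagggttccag
Sf3b1: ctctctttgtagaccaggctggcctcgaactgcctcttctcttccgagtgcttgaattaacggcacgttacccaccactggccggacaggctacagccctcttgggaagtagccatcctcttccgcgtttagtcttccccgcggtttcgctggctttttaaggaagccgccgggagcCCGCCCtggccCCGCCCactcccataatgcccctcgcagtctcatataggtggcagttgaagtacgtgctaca

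The Snrnp70 window held 21 CpG dinucleotides, 1 GC box and 4 NRF1 matches, of which a pair overlap on opposite strands. The Sf3b1 window held 2 GC boxes and 16 CpG dinucleotides. In the Snrnp35 window none of the 5 motifs was found, and its GC content was 34.8%, beside 57.6% for Snrnp70 and 58.4% for Sf3b1. RefSeq rows were found for 46 of the 57 genes, with 57 starts. An ETS core stood in 28.1% of those starts' windows, beside 6.91% of 32851 windows of the same length over all genes. The GC box stood in 52.6% beside 32.7%, the CCAAT box in 38.6% beside 33.8%, the TATA box in 7.02% beside 12.4%, and the NRF1 core, added after the Snrnp70 sequence was seen, in 8.77% beside 2.26%. These matches are descriptions of letters, and several starts belong to 1 gene.

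Among U1 genes, Snrnp70 stood lowest in cKO. It encodes the U1-70K protein, which binds the U1 RNA and is contacted by serine and arginine rich proteins, and it lies at chr7:45376453-45395742 on the minus strand (GRCm38). Its FPKM was 23.3, 24.7 and 29.1 in WT and 18.5, 15.1 and 17.0 in cKO. The groups did not overlap, with a cKO mean of 16.9 ± 1.73 (SD, n = 3) against 25.7 ± 3.04 (SD, n = 3), or 65.7% of WT. The log2 difference was -0.58 (SE 0.13), with an adjusted p of 0.360 by limma. With length and GC trends of each library removed it was -0.44.

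Snrpa, which encodes the U1 protein A and binds a stem loop of U1 RNA, had the highest level of the U1 genes, and its groups overlapped with WT at 40.9 ± 2.90 and cKO at 35.7 ± 4.25 FPKM (SD, n = 3). Prpf39, whose product helps U1 join the intron start, was at 5.44, 5.23 and 6.08 FPKM in WT and 5.38, 7.75 and 8.46 in cKO. Its cKO replicate 1 lay inside the WT range and the other cKO libraries above it (log2 difference 0.30, SE 0.16, adjusted p = 0.472). With length and GC trends removed the difference was -0.02. Prpf39 is also the longest of the U1 genes, and its GC content of 37.6% is the lowest. The U1 median was -0.14, with -0.06 when WT replicate 1 was left out, -0.07 without cKO replicate 3, -0.22 without cKO replicate 1 and -0.09 both on the TPM scale and with length and GC trends removed.

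The U2 genes fall into branch point proteins, the SF3a and SF3b complexes and the U2AF dimer, which marks the end of the intron. Of 13 tested, 9 had negative differences and the range was -0.54 to 0.25. U2af2, the large U2AF subunit that binds the polypyrimidine tract, had the highest level at 59.3, 53.3 and 58.8 FPKM in WT and 52.2, 44.5 and 41.9 in cKO. Its groups did not overlap (log2 difference -0.31, SE 0.13, adjusted p = 0.398). Its small partner U2af1, named here outside the rule for naming genes, was at 27.1 to 33.6 FPKM in WT libraries and 25.7 to 28.1 in cKO libraries. U2af1l4, a relative of U2af1, was below the filter with 0 to 6 reads per library, and 65.6% of its exon bases are shared with Gm49396 on the same strand.

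Within SF3a, the trimer that bridges to U2, Sf3a2 had 19.8, 25.8 and 29.8 FPKM in WT and 23.5, 13.3 and 15.0 in cKO. The value of cKO replicate 1 lay inside the WT range (log2 difference -0.54, SE 0.23, adjusted p = 0.403), and with length and GC trends removed the difference was -0.26. Exons of Plekhj1 on the opposite strand cover 16.1% of the Sf3a2 exon bases, and the use of strand in the authors' counting was not given in the sources used here. In SF3b, which holds the branch point adenosine, Sf3b1 went the other way. This largest subunit had 36.5, 37.2 and 36.9 FPKM in WT and 39.2, 47.6 and 46.1 in cKO. All cKO values lay above WT (log2 difference 0.25, SE 0.12, adjusted p = 0.418), and with length and GC trends removed the difference was 0.04. Sf3b3 was the other U2 gene with all cKO values above WT, at 0.14 (named for that, outside the rule). The U2 median was -0.12, with -0.01 without WT replicate 1, -0.21 without WT replicate 2 and -0.06 on the TPM scale. With length and GC trends removed it was -0.11.

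**Figure D2:**
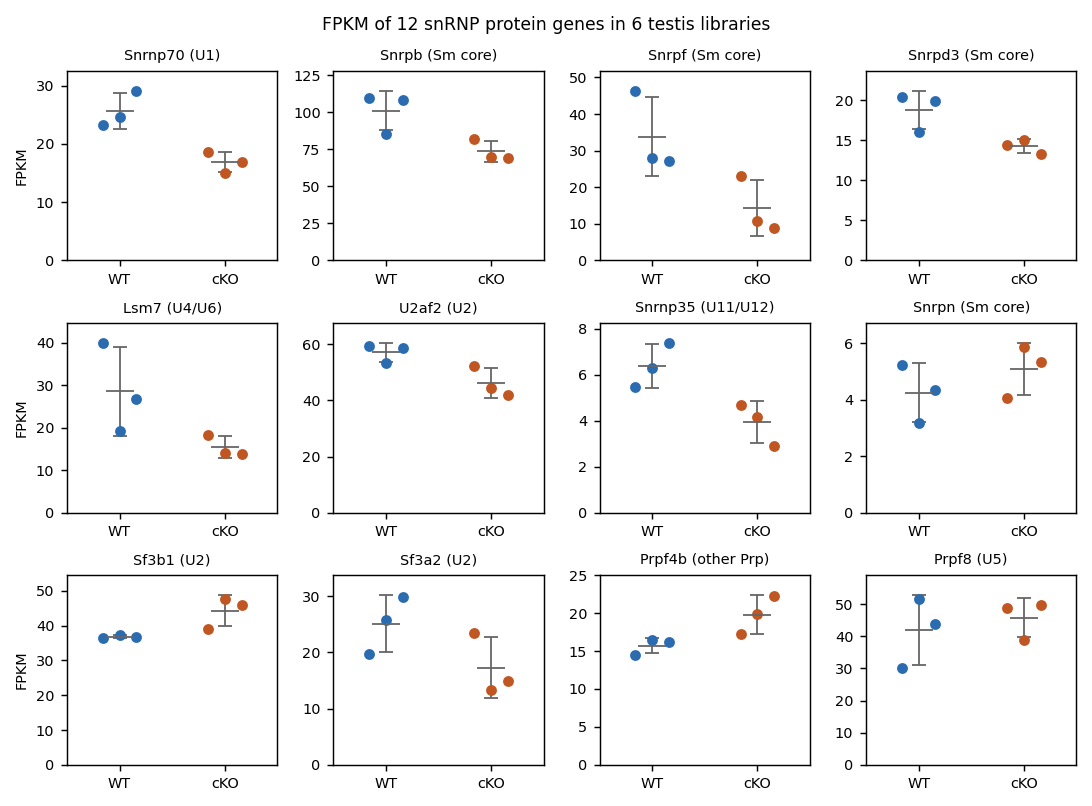
FPKM (vertical axes, from 0) of 12 snRNP protein genes in each library, with replicates 1 to 3 from left to right in each group, the group mean as a long bar and the SD as whiskers. Snrnp70, Snrpb, Snrpf, Snrpd3, Lsm7, U2af2 and Snrnp35 show 3 cKO points under 3 WT points, Sf3b1 and Prpf4b the reverse, and Snrpn, Sf3a2 and Prpf8 overlap.

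The U4/U6 genes divide into the LSm ring of U6, the Prp proteins of U4/U6 and Snrnp27 (log2 difference -0.04, named outside the rule). Of 11 tested, 9 had negative differences, beside 49.2% of all genes, and the median was -0.13. In 3 the groups were separated, all with lower cKO values, beside 9.92% of all genes. Lsm7 had the largest difference, at 39.9, 19.1 and 26.8 FPKM in WT and 18.4, 13.9 and 13.9 in cKO (log2 difference -0.80, SE 0.25, adjusted p = 0.372). Its separation was narrow, since WT replicate 2 and cKO replicate 1 lay next to each other. Lsm4, the ring gene with the highest level, had 118, 63.5 and 84.3 FPKM in WT and 63.5, 63.8 and 59.3 in cKO (log2 difference -0.46, adjusted p = 0.416). The difference was -0.19 with length and GC trends removed and -0.23 without WT replicate 1. Only WT replicates 1 and 3 stood above the cKO libraries. Lsm5 was at 22.5, 19.2 and 21.3 FPKM in WT and 17.5, 18.8 and 16.6 in cKO, again with a narrow gap (log2 difference -0.24, adjusted p = 0.423), and its difference was -0.54 with trends removed.

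The remaining ring genes Lsm2, Lsm3, Lsm6 and Lsm8 overlapped between groups, with log2 differences from -0.22 to 0.09. Prpf31, which locks U4/U6 to U5, had 8.09, 7.50 and 8.72 FPKM in WT and 7.26, 7.27 and 7.49 in cKO, so WT replicate 2 and cKO replicate 3 were almost equal (log2 difference -0.12, adjusted p = 0.625), and the groups overlapped with length and GC trends removed. Its 2 partners Prpf3 and Prpf4 had differences of -0.02 and 0.06. Leaving out WT replicate 1 gave a U4/U6 median of -0.03, leaving out WT replicate 2 one of -0.24 and leaving out cKO replicate 3 one of -0.06. On the TPM scale this median was -0.08, and with length and GC trends removed it was -0.19.

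The 4 U5 genes had a positive median of 0.10 and no separated groups. Prpf8, the scaffold of the catalytic core, was at 30.1, 51.6 and 44.0 FPKM in WT and 49.0, 38.8 and 49.7 in cKO. Its lowest value was WT replicate 1, and without that library the log2 difference of 0.15 (SE 0.20, adjusted p = 0.765) became -0.06. Snrnp200, the helicase that unwinds U4 from U6, had means of 24.1 ± 3.84 in WT and 27.2 ± 1.37 FPKM in cKO (SD, n = 3; log2 difference 0.18, adjusted p = 0.594). Its lowest value was again WT replicate 1, at 20.1 FPKM, and without that library the difference was 0.06. Snrnp40, a WD repeat protein of U5, had a difference of -0.16 (adjusted p = 0.594), and one of -0.06 without WT replicate 1. When WT replicate 1 was left out, the U5 median was 0.00, and when cKO replicate 1 was left out it was 0.03. It was 0.16 both without WT replicate 2 and on the TPM scale, and 0.12 with length and GC trends removed.

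The Sm core genes encode the ring proteins, with Snrpb and Snrpn as alternative sources of the SmB position. Their median was -0.34, and 7 of 8 had negative differences. Summed FPKM was 424, 265 and 344 in WT and 266, 281 and 241 in cKO, so WT replicate 2 lay among the cKO libraries. Without WT replicate 1 the median was -0.16. It was -0.31 with length and GC trends removed and -0.29 on the TPM scale.

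Snrpf (SmF) had the largest difference of the 56 genes, at 46.3, 28.0 and 27.1 FPKM in WT and 23.1, 10.7 and 8.97 in cKO. The groups did not overlap, and the cKO mean of 14.3 ± 7.72 (SD, n = 3) was 42.2% of the WT mean of 33.8 ± 10.8 (log2 difference -1.26, SE 0.34, adjusted p = 0.372). These values rest on 634, 405 and 381 reads in WT and 340, 163 and 126 in cKO. Snrpf lies at chr10:93583029-93589706 on the minus strand (GRCm38), and 65.9% of its exon bases lie in exons of Ccdc38 on the opposite strand. Ccdc38 itself was at 0.152 to 0.453 FPKM in WT and 0.354 to 0.501 in cKO. A further 13.1% of the summed reads of Snrpf and its named pseudogenes were counted on the pseudogenes. How shared reads were divided was not given in the sources used here, so the Snrpf value is uncertain.

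Snrpb, the most abundant Sm core gene, had 109, 85.7 and 108 FPKM in WT and 81.9, 69.6 and 69.1 in cKO. The groups did not overlap, and the cKO mean was 72.8% of the WT mean (log2 difference -0.45, SE 0.14, adjusted p = 0.379). Snrpd3 was at 20.4, 16.01 and 19.8 FPKM in WT and 14.4, 15.1 and 13.3 in cKO, with WT replicate 2 next to cKO replicate 2 (log2 difference -0.37, SE 0.13, adjusted p = 0.379). The groups of Snrpd1, Snrpd2, Snrpe and Snrpg overlapped, with differences from -0.39 to -0.02, and WT replicate 1 was the highest of the 6 libraries in all 4 of these genes.

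Snrpn, an imprinted relative of Snrpb known mainly from brain, was the 1 Sm core gene with a positive difference. It had 5.24, 3.17 and 4.35 FPKM in WT and 4.07, 5.86 and 5.34 in cKO, with overlap (log2 difference 0.22, adjusted p = 0.619), and without WT replicate 2 the difference was 0.06. As a share of the summed Snrpn and Snrpb FPKM, Snrpn made up 4.58%, 3.57% and 3.86% in WT and 4.73%, 7.77% and 7.17% in cKO. The means were 4.004% ± 0.516 and 6.56% ± 1.61 (SD, n = 3), higher in 3 of 3 cKO libraries, with an exact two-sided permutation p of 0.1, the smallest that 3 against 3 allows. The separation was narrow, since WT replicate 1 and cKO replicate 1 lay next to each other. Snrpn had only 115 to 223 reads per library. Snrpn shares 27.3% of its exon bases with Gm38393 and 10.005% with Snurf on the same strand, and Snurf was listed at 0 in all 6 libraries.

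**Figure D3:**
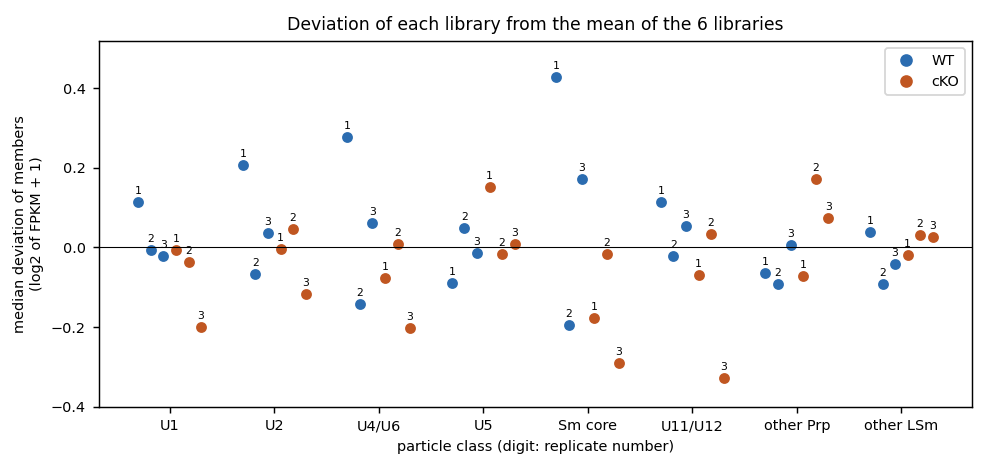
Score of each particle group by library (vertical axis, median over its tested genes of the deviation of log2(FPKM + 1) from that gene's 6-library mean). For the Sm core WT replicate 1 stands highest at 0.43 and WT replicate 2 lies at -0.19, inside the cKO range of -0.29 to -0.02, and U5 runs the other way in WT replicate 1 (-0.09).

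The U11/U12 genes encode proteins of the minor spliceosome. Snrnp35, the counterpart of U1-70K in the U11 particle, had 5.46, 6.28 and 7.38 FPKM in WT and 4.70, 4.17 and 2.91 in cKO. Its groups did not overlap, and the cKO mean was 61.6% of WT (log2 difference -0.59, SE 0.17, adjusted p = 0.372), on 64 to 162 reads per library. With length and GC trends removed its groups overlapped and the difference was -0.39. Snrnp25 had a difference of -0.23, which was -0.04 with trends removed and -0.07 without WT replicate 1, and Snrnp48, which binds the start of minor introns, one of 0.08. The sign of Snrnp48 turned to -0.15 with length and GC trends removed. The median of the 3 was -0.23, from -0.35 without WT replicate 2 to -0.07 without WT replicate 1. With trends removed this median was -0.15.

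Of the 11 genes outside the particles, Prpf4b, a kinase that acts on Prp proteins, was at 14.5, 16.4 and 16.2 FPKM in WT and 17.2, 20.0 and 22.3 in cKO. All cKO values lay above WT (log2 difference 0.31, SE 0.13, adjusted p = 0.396), and with length and GC trends removed the difference was 0.09. Prpf19, the ubiquitin ligase of the Prp19 complex, had means of 31.8 ± 2.42 in WT and 30.3 ± 0.547 FPKM in cKO (SD, n = 3). Prpf38b and Prpf18 had differences of 0.14 and 0.12, which were -0.13 and -0.02 with length and GC trends removed. Of the LSm genes outside the U6 ring, Lsm14b, an RNA-binding protein of the cytoplasm, had a difference of -0.13 and Lsm1, of the ring that serves mRNA decay, one of -0.09. Lsm11, part of the histone mRNA particle U7, had -0.06, and Lsm12 had 0.09. Lsm1 was at -0.01 without WT replicate 1, Lsm11 at 0.01 without WT replicate 2 and Lsm12 at 0.02 with trends removed. None of these 6 LSm genes had separated groups.

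Gene length and GC content moved with the differences. Across the 56 genes, Spearman's rho of the log2 difference was 0.54 with gene length and -0.47 with GC content, beside 0.28 and -0.61 across the 13945 tested genes with a known GC content. Genes are not independent replicates, and all share the same 6 libraries. Split at their median length of 3641.5 bases, 23 of the 28 shorter snRNP genes had a negative difference, with 6 separated downward and 0 upward. Of the 28 longer ones 14 were negative, with 3 separated downward and 4 upward. Among all genes tested, 60.4% of those up to that length and 39.6% of the longer ones were negative. Of the shorter ones 13.2% were separated downward and 4.55% upward, and of the longer ones 7.14% and 12.2%, so the split of the snRNP genes ran the same way as that of all genes.

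Single libraries differed in this trend within each group. The rho of a library's deviation with length was -0.68 in WT replicate 1, 0.26 in WT replicate 2 and -0.36 in WT replicate 3, and 0.29, 0.17 and 0.55 in cKO replicates 1 to 3. With GC content it was -0.65 in cKO replicate 2 and -0.47 in cKO replicate 3, and 0.26 in cKO replicate 1, which lay among the WT values of 0.03 to 0.46. After both trends were removed from every library, 45 of the 56 genes (80.4%) had a negative difference, beside 51.9% of all genes, and the median was again -0.12. The count with all cKO values below WT was 9, beside 9.16% of all genes, and 7 of these genes were also among the 9 found before. Prpf31 and Snrnp35 were no longer separated, and Snrpg and Snrpb2 were. The count with all above was 1, Snrnp200, in place of 4 other genes, beside 5.38%. What the trends stem from was not tested.

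**Figure D4:**
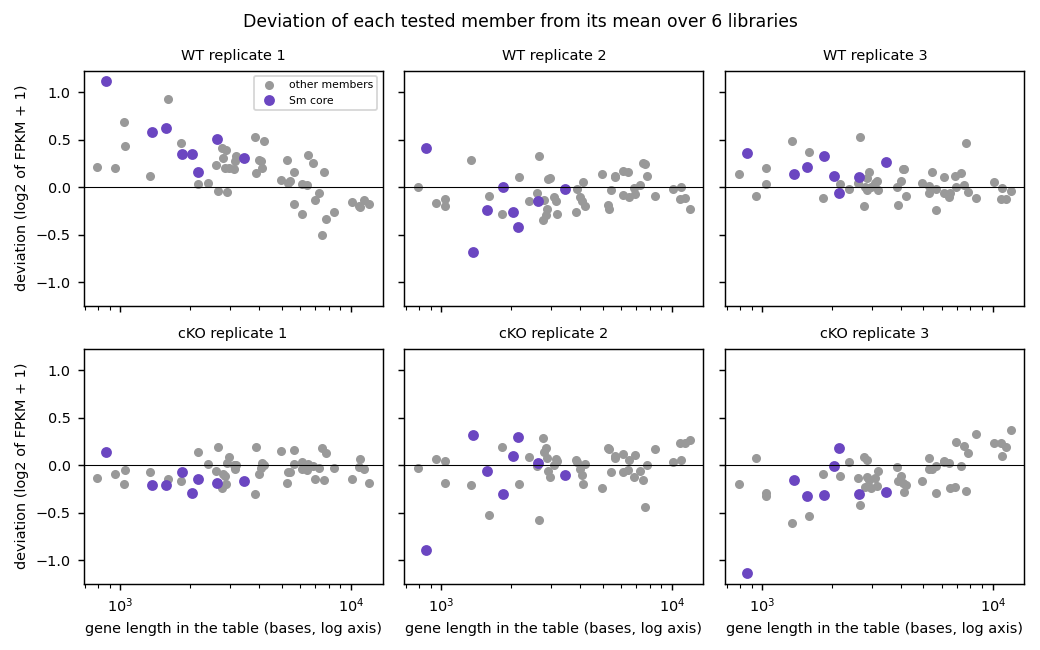
Deviation of each of the 56 snRNP protein genes from its mean over the 6 libraries (log2(FPKM + 1), vertical axis) against gene length in bases (log axis), 1 panel per library. The cloud slopes down in WT replicate 1 (rho -0.68) and up in cKO replicate 3 (rho 0.55), and WT replicate 2 (rho 0.26) slopes up as the cKO libraries do.

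Pathway partners outside the name rule gave 77 tested genes of 78 listed, and none passed the adjusted threshold (lowest adjusted p = 0.373). Negative differences were found in 37 and positive ones in 40, and the median was 0.01. Of the 77, 8 (10.4%) were separated downward and 9 (11.7%) upward, close to the 9.92% and 8.69% of all genes. The U5 and tri-snRNP partners held 5 of these 8, out of 9 genes, with a median of -0.20, a group singled out here after its values were seen. Ppih, a peptidyl-prolyl isomerase bound to U4/U6, had 12.4, 5.94 and 7.80 FPKM in WT and 5.44, 5.03 and 1.97 in cKO (log2 difference -0.94). Cd2bp2, a U5 assembly protein, had -0.38, and the others, Sart1 at -0.61, Sart3 at -0.27 and Ddx23 at -0.20, are named for their separation, after their values were seen. The other 4 genes of this group, Snu13 (0.15), Txnl4a (0.16), Usp39 (0.04) and Eftud2 (0.01), had positive differences. Without cKO replicate 3 the difference of Ppih was -0.59.

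The genes of Sm ring assembly and snRNA transport, among them the SMN complex, had a median of 0.03 over 15 tested genes. Tgs1, which trimethylates the cap of snRNAs, was at 8.25, 9.82 and 10.1 FPKM in WT and 11.2, 12.4 and 13.1 in cKO (log2 difference 0.35), without overlap. Gemin7, of the SMN complex, had a difference of -0.32. With length and GC trends removed these were 0.17 and -0.08. Of the snRNA maturation genes, Ints6 of the Integrator complex had 0.33 and Tut1, which adds uridines to U6 RNA, -0.27, and with trends removed they were 0.08 and -0.14. Among U1 and U2 partners, Rbm25 had 0.19, Ddx39b -0.13, U2surp 0.23 and Dhx15 0.22, and with trends removed these were -0.14, -0.0022, -0.08 and 0.04. The U11/U12 partner Rnpc3 had 0.40, and -0.02 with these trends removed, and Zrsr1 had 0.17, and 0.07 with them removed. Cdc40 and Aqr, which act around the catalytic steps, had 0.33 and 0.35, and Cdc40 was at 0.15 with trends removed.

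Short snRNP genes have many pseudogene copies, which bears on where their reads were counted. A search of the row descriptions for 19 of the snRNP proteins found 60 pseudogene rows, of which 8 had a mean FPKM of 1 or more. Together they took 2.94% of the reads of the 19 genes and these pseudogenes. The share was 35.2% for Lsm5, 13.7% for Lsm7, 13.6% for Snrpg and 8.62% for Snrpe. The values of these genes are uncertain. Because the handling of shared reads was not given, these shares do not set the size of that uncertainty.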

How the data were processed

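Whole testis RNA of 3 WT and 3 cKO samples was sequenced, and Trizol extraction and a SMARTER mRNA-Seq library kit were used per the labels' protocols. The authors deposited FPKM values per gene in 1 table. Per the submitters' processing notes the builds were GRCm38 and mm10, and the aligner, counter, annotation release and use of strand were not given in the sources used here. Positions were taken by gene identifier from GENCODE M21 (GRCm38).

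Within a tolerance of 0.01, 100% of values gave whole reads when FPKM was multiplied by gene length and divided by each library's step, so reads per gene were recovered, and intervals from them would cover counting error only. These recovered reads served in an alternative with limma voom (at least 10 reads in at least 3 libraries). The test was limma 3.58.1 (R 4.3.3), two-sided and with its trend option, on log2(FPKM + 1) of 14238 genes whose mean FPKM reached 1, at a threshold of 0.05. Low genes change by more than this scale shows. Errors of differences are moderated standard errors, with 95% intervals in the plot. The fit was tested on simulated data with known changes, larger than most differences given here and without length or GC trends. That test therefore does not cover the smaller differences or these trends.

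The snRNP genes, the lists of partners and cell markers, the tests and the alternatives were chosen with earlier results of these data known. In each particle group the text names the genes with the highest and the lowest mean FPKM and up to 3 with the lowest unadjusted p, in each partner group up to 2 with the lowest unadjusted p, and Snrnp70 and Srsf2. Of these, 1 gene is not reported here, though it stays in the fits and counts. Other genes are given by ranges or named as outside the rule, among them the remaining LSm ring, Sm core, Prpf3, Prpf4 and Ccdc38. Alternatives were a pseudocount of 0.1, no filter, a minimum mean FPKM of 5, the TPM scale, median-of-ratios scaling, limma without trend, a replicate block, voom, removal of length and GC trends (natural splines with 5 degrees of freedom, GC known for 97.9% of genes tested) and leaving out each library. Splicing is not analysed here, because the table lists genes. Other software was Python 3.11.15, numpy 2.4.6, pandas 2.3.3, scipy 1.17.1 for exact tests and matplotlib 3.10.9 for plots.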

Additional observations from a re-analysis of the deposited data

How the results depend on the processing

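With 3 libraries a group, and trends on length and GC that differ between libraries of 1 group, small differences of single genes cannot be resolved here. No snRNP gene passed the adjusted threshold in any of the 15 alternatives run. Median-of-ratios scaling divided all 6 libraries by the same factor of 1.01, so it did not change the scaling between libraries. With it 14216 genes passed the filter. By this measure the deposited values were already level between libraries. Of 611 values of 44 named genes under the other 14 alternatives, 598 kept their direction and side of the threshold and 13, in 10 genes, reversed in sign. Over all genes, 1 gene was called lower and 1 higher. Genes lower were 0 with no filter, the replicate block and voom, and 0 in all fits without a library. Genes higher were 0 with a pseudocount of 0.1, no filter, a mean FPKM of at least 5 and the replicate block, 0 in all fits without a library, and 2 with length and GC trends removed.

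Over fits without 1 library, snRNP genes with all cKO values lower ran from 9 to 19 and those with all higher from 4 to 8, and with trends removed 1 was higher. In the same fits without 1 library, 12% to 19.4% of all genes were separated downward and 11.05% to 18.7% upward. The 8 came without cKO replicate 1, where the share of all genes was 18.7%. The 19, of 56 tested, came without WT replicate 2, where the share of all genes was 19.4%. On the TPM scale 11 were lower and 5 higher, beside 6.39% and 10.3% of all genes. There the filter passed 18620 genes in place of 14238, so these shares take in genes of lower level than the main ones. The U5 median ran from -0.0019 to 0.16 and the U11/U12 median from -0.35 to -0.066, and was -0.41 for genes at a mean FPKM of at least 5, where fewer genes were tested. The Snrpn share difference ran from 1.95 to 3.46 percentage points, with 2.55 over all libraries.

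Signs reversed with length and GC trends removed for Prpf39 (-0.017), Snrnp48 (-0.15), Prpf38b (-0.13), Prpf18 (-0.019), Rbm25 (-0.14), U2surp (-0.078) and Rnpc3 (-0.022). On the TPM scale Prpf38a reversed to 0.032, and the median of the 18620 genes tested on this scale was 0.07. Without 1 library, differences ran from -0.063 to 0.32 for Prpf8, -0.13 to 0.11 for Prpf38a, -0.12 to 0.01002 for Lsm11 and -0.013 to 0.17 for Snrnp48. The cause was not tested beyond these fits.

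WT and cKO libraries share the replicate numbers 1 to 3. Deviations from the group means over genes correlated at 0.0948, -0.331 and 0.393 between same-numbered libraries, and WT replicate 1 correlated best with cKO replicate 2 (0.353), so the numbers were not taken to pair samples. With the replicate block the count of snRNP genes called was 0, as without it, and 6 in place of 8 had lower values at an unadjusted p under 0.05.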

Other observations

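The RNAs of the particles themselves were barely measured. The table held 1381 rows of the snRNA biotype, with 218, 380 and 317 reads in WT and 271, 340 and 338 in cKO. Between 71 and 145 of these rows had a read in a library. The ranges of WT and cKO overlapped.

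Among the pseudogene rows of snRNP genes, Gm8186, named for Snrpg, had the highest level, with 54.9 FPKM in WT and 43.1 in cKO on average. Gm10146, named for Lsm7, had 20.9 and 15.0, and Snrpert, named for Snrpe, 23.5 and 21.3. Of 9 rows named for Snrpf, the 2 that reached a mean FPKM of 1 lay lower, at 4.38 and 1.41 FPKM in WT and 2.495 and 1.202 in cKO. The Lsm14a share of summed Lsm14a and Lsm14b FPKM was 44.0% in WT and 47.6% in cKO on average, with overlapping libraries.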
